A study of Mus musculus with 18 samples.

Results

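Nr3c2 and Dhrs9 were described through the sites at which Argonaute 2 (Ago2), the protein that carries miRNAs to their target RNAs, was found on their transcripts in mouse colonic epithelium. All merged Ago2 peaks that the authors labelled with either gene were taken, which gave 13 peaks for Nr3c2 and 10 for Dhrs9, 23 of 5554 peaks in all. The pair was chosen by its normalized peak reads in G12D against WT colon, so that difference is given below as a description, with no p-value for a member peak. The assay, HEAP, pulls a Halo-tagged Ago2 out of UV-crosslinked tissue and sequences the RNA it held. C57BL/6 mice aged 8 to 12 weeks were used, and scraped distal colon was crosslinked 3 times at 400 mJ/cm2. WT mice carried Halo-Ago2/+ and Fabp-Cre/+, and G12D mice carried K-Ras-G12D/+ beside the same Halo-Ago2/+ and Fabp-Cre/+ alleles. Cre is thus present in both genotypes, driven by a Fabp promoter. Each genotype had 3 pulldown mRNA libraries, 3 miRNA libraries and 3 input libraries, of which the inputs were not analysed here.

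Nr3c2 encodes the mineralocorticoid receptor, the nuclear receptor through which aldosterone raises sodium uptake in the epithelium of the distal colon and kidney. Hsd11b2, which inactivates glucocorticoids, keeps the receptor selective for aldosterone, and the epithelial sodium channel, the kinase Sgk1 and the sodium pump act downstream. Dhrs9 encodes a short-chain dehydrogenase that oxidises retinol to retinal, a step on the way to retinoic acid, which activates the retinoic acid receptors. A miRNA finds its targets mainly by pairing its seed, bases 2 to 8, with a transcript. In the authors' annotation the strongest match is the 8mer, which pairs bases 2 to 8 and has an A opposite base 1. It is followed by the 7mer-m8, which lacks that A, by the 7mer-A1, which pairs bases 2 to 7 and has the A, and by the 6mer.

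The authors' annotation lists 51 seed matches in the 23 peaks, 21 in Nr3c2 and 30 in Dhrs9, from 32 miRNA families. Of these families, 16 matched Nr3c2, 22 matched Dhrs9 and 6 matched both genes. The mature miRNAs below belong to some of the 18 families with an 8mer or 7mer-m8 match in these peaks. They are printed 5′ to 3′ from RefSeq (GRCm38.p6) with the seed in capitals.
miR-194-5p: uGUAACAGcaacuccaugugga
let-7b-5p: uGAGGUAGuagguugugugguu
miR-196b-5p: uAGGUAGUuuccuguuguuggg
miR-7a-5p: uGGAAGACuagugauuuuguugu
miR-22-3p: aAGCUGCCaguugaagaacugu
miR-182-5p: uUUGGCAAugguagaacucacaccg
miR-27a-3p: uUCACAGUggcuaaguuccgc
miR-26a-5p: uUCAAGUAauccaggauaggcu
miR-30e-5p: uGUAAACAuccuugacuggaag
miR-192-5p: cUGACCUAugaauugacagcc
miR-200c-3p: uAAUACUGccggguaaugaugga
miR-224-5p: uAAGUCACuagugguuccguu
The seeds of let-7b-5p and miR-196b-5p overlap by a shift of 1 base, so the letters that pair with each share a run of 6, CUACCU. Where both families are listed at a peak, the matches can be the same letters and are not independent. The same holds for miR-182-5p and miR-96-5p, which share UGCCAA, and for the miR-16 and miR-103 families, which share UGCUGC.

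The pulldown libraries differed in depth. They held 100978, 54401 and 148770 reads in merged peaks in WT libraries 1 to 3, and 148927, 723937 and 247358 in G12D libraries 1 to 3. The values below are normalized reads, which are reads divided by a factor per library. In that unit 1 read was worth 2.12, 2.90 and 1.29 in WT libraries 1 to 3, and 1.09, 0.206 and 0.718 in the G12D libraries, so a WT value near 2 is a single read. Intervals and exact lower limits cover counting error only and are not used as tests. Replicate pairs differed by more than counting error, with chi-square per degree of freedom of 3.68 to 10.87, so these limits are too narrow. Where WT had 0 reads, folds are given against a floor of 3 reads, which is not an exact limit. Ratios and floor folds of a single peak use reads pooled over the 3 libraries of a genotype, divided by the sum of their factors. G12D library 2, the deepest, weighs most in them, so they differ from ratios of the mean normalized reads. The ratios of a gene's summed peaks are ratios of mean normalized reads. Peaks were found on 21 of 25 colonocyte and goblet cell marker genes, on 0 of 12 stromal and muscle markers and on 0 of 13 blood and endothelial markers. The summed colonocyte and goblet signal ranged from 12990 to 14170 normalized reads in WT and from 11860 to 14360 in G12D. Of 10 neural and enteroendocrine markers, Chga, Chgb and Pyy had peaks, with sums of 8.70 to 23.4 in WT and 41.4 to 84.7 in G12D. The part of enteroendocrine cells in the results below was not tested. In bulk tissue, fewer cells of a type and less RNA per cell cannot be told apart, and without the inputs neither can Ago2 binding and the amount of transcript.

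**Figure D1:**
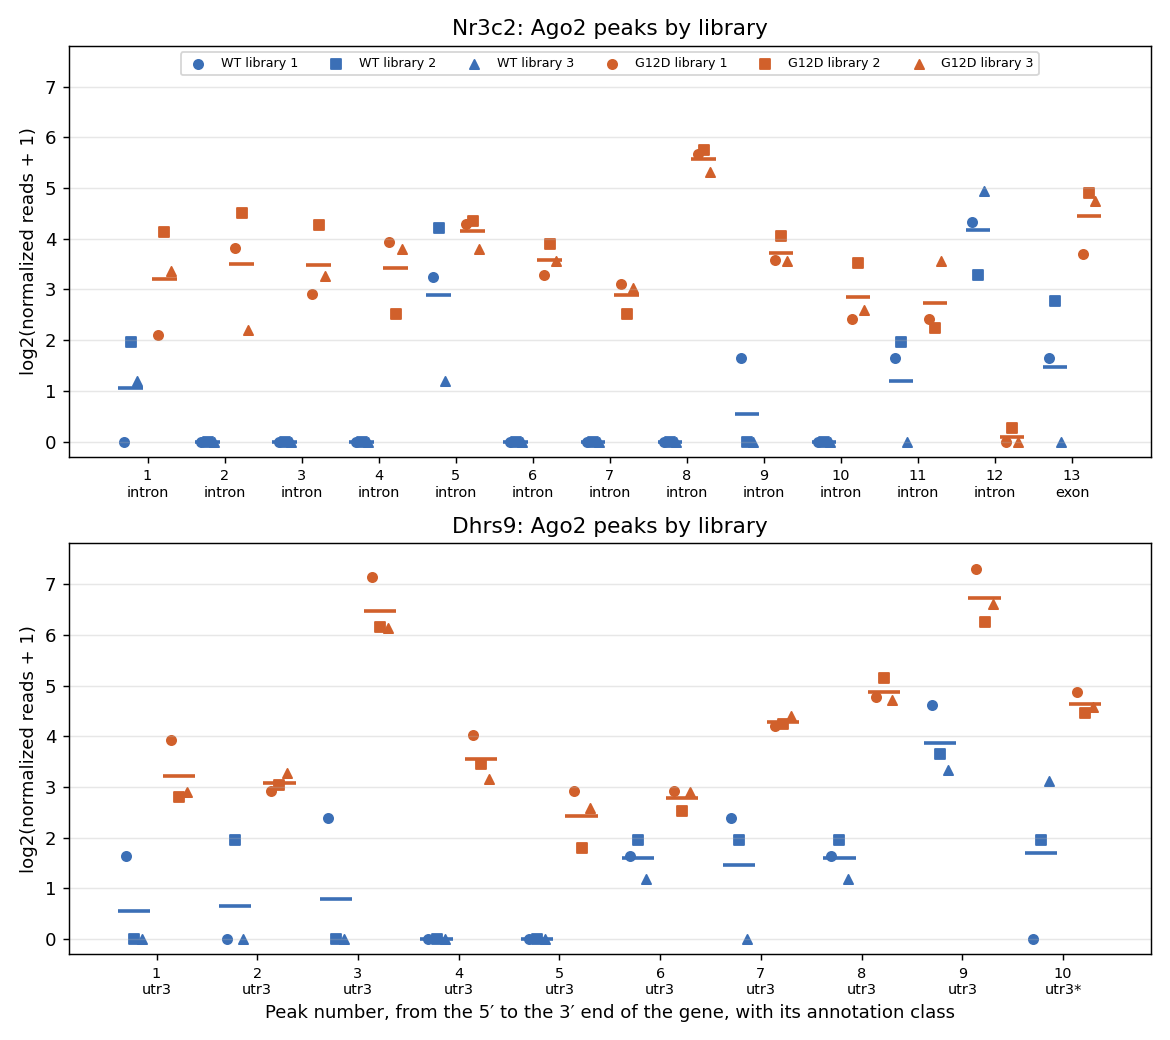
Normalized reads of each Nr3c2 peak (upper panel) and Dhrs9 peak (lower panel), as log2(normalized reads + 1), in the 3 WT and 3 G12D pulldown libraries. Points are libraries and bars are means of the log2 values over 3 libraries. The G12D points lie above the WT points in 11 of 13 Nr3c2 peaks and in all 10 Dhrs9 peaks, and Nr3c2 peak 12 runs the other way. Over all 5554 merged peaks, the G12D libraries lie above the WT libraries in 50.1%.

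Ago2 signal on Nr3c2 was spread over 13 peaks, 12 in introns and 1 in an exon. In 11 of them every G12D library lay above every WT library, an arrangement that held in 50.1% of all 5554 merged peaks. Summed over the 13 peaks, Nr3c2 had 34.0, 37.7 and 32.2 normalized reads in WT and 153.8, 210.6 and 156.6 in G12D. The 3 G12D libraries lay far above the 3 WT libraries. The means were 34.6 ± 2.79 and 174 ± 32.1 (SD, n = 3 per genotype), a ratio of 5.02 over the 687 bases of these peaks, from 54 WT reads and 1380 G12D reads. The ratio describes these peaks, 12 of which come from the G12D peak list, and not the gene. Much of the WT sum came from peak 12. Without it the WT libraries stood at 14.9, 29.0 and 2.58, and the G12D mean stayed at 174 ± 31.9. The peaks then left all come from the G12D list, so no ratio is drawn from them.

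Peaks are numbered from the 5′ end of each gene. Nr3c2 lies on chromosome 8, 76898083 to 77245012 in RefSeq (GRCm38.p6), and its peaks, 45 to 62 bases wide, stretch over 273831 of its 346930 bases. No other RefSeq gene overlaps any of them. The peak with the most G12D reads was peak 8, in an intron (chromosome 8, 77032489 to 77032550). It had 0 reads in all 3 WT libraries and 50.2, 52.8 and 38.8 normalized reads in G12D, from 356 reads. With the WT group set to a floor of 3 reads in all, the G12D level was 26.4-fold the floor (exact lower limit 21.4). Scaled to the depth of the shallowest library, WT library 2, the G12D values come to 16.8, 19.2 and 11.9 reads, where WT library 2 had 0. Peak 8 held 27.5% ± 4.45 (SD, n = 3) of the gene's G12D signal and its G12D mean stood at percentile 90.7 of all merged peaks. It carries an 8mer for let-7 and 7mer-m8 matches for miR-196 and miR-7. The let-7 and miR-196 matches may share letters, as given above, but the letters of the peak were not read.

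The other Nr3c2 peaks were lower. The exon peak, peak 13 (77187540 to 77187596), had 2.12, 5.80 and 0 normalized reads in WT and 12.0, 28.7 and 25.9 in G12D. Its groups did not overlap, with 3 WT and 186 G12D reads, a ratio of 13.8 (95% counting interval 4.65 to 67.5). It holds a 7mer-m8 for the miR-200 family, which is abundant in epithelia. Peak 9 (77105185 to 77105240), with a 7mer-m8 for miR-26, had 2.12, 0 and 0 in WT and 10.9, 15.5 and 10.8 in G12D. Peak 6 (76992651 to 76992695) had no WT read and 8.72, 13.8 and 10.8 in G12D, 6.67-fold the floor (exact lower limit 5.32). Peak 6 and peak 11 (77160505 to 77160549) each have an 8mer for miR-192 and miR-215, miRNAs of the intestinal epithelium. In peak 11, at 2.12, 2.90 and 0 in WT and 4.36, 3.71 and 10.8 in G12D, the groups came close to each other but did not overlap.

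Near the 5′ end, peaks 1 (76913766 to 76913820) and 3 (76931567 to 76931618) both have an 8mer for the miR-30a-3p, miR-30d-3p and miR-30e-3p family. Peak 3 had 0 WT reads and 6.54, 18.4 and 8.62 in G12D, 7.93-fold the floor (exact lower limit 6.34). Peak 1 had 0, 2.90 and 1.29 in WT and 3.27, 16.5 and 9.34 in G12D, and its lowest G12D library sat just above the highest WT library. Peak 2 (76920372 to 76920430), without a listed seed match, had 0 WT reads and 13.1, 21.7 and 3.59 in G12D. Its G12D libraries spread widely, with library 3 lowest. Peak 4 (76952005 to 76952052), with a 7mer-A1 for miR-29, had 0 WT reads and 14.2, 4.75 and 12.9 in G12D. That was 4.0-fold the floor (exact lower limit 3.15). Peaks 7 (77010620 to 77010668) and 10 (77119606 to 77119658) also had 0 WT reads, and had G12D values of 4.36 to 10.5. At the depth of WT library 2, peak 7 would give 2.56, 1.73 and 2.20 reads, so 0 reads in that library alone says little about it. Peak 10 holds an 8mer for the miR-200 family.

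A pair of Nr3c2 peaks departed from this. Peak 5 (76963441 to 76963489), with an 8mer for miR-30-5p, had 8.49, 17.4 and 1.29 normalized reads in WT and 18.5, 19.4 and 12.9 in G12D. The groups overlapped, and the log2 fold change of 1.27 ± 0.73 (SE) was the smallest of the gene's tested peaks. Peak 12 (77171864 to 77171920) had 19.1, 8.69 and 29.6 in WT and 0, 0.206 and 0 in G12D. It rests on 35 WT reads against 1 G12D read, with WT over G12D at 157 (95% counting interval 26.4 to 6390). It is the gene's only peak from the WT peak list, is the next one 3′ of peak 11, and has no match stronger than a 6mer, for miR-345. Peaks 11 and 12 ran in opposite directions between the genotypes, within the same libraries. Each comes from the peak list of the genotype in which it is higher, so nothing is read from this. Peak 11 rests on 2 WT and 37 G12D reads and fell below the mean needed for the fit.

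**Figure D2:**
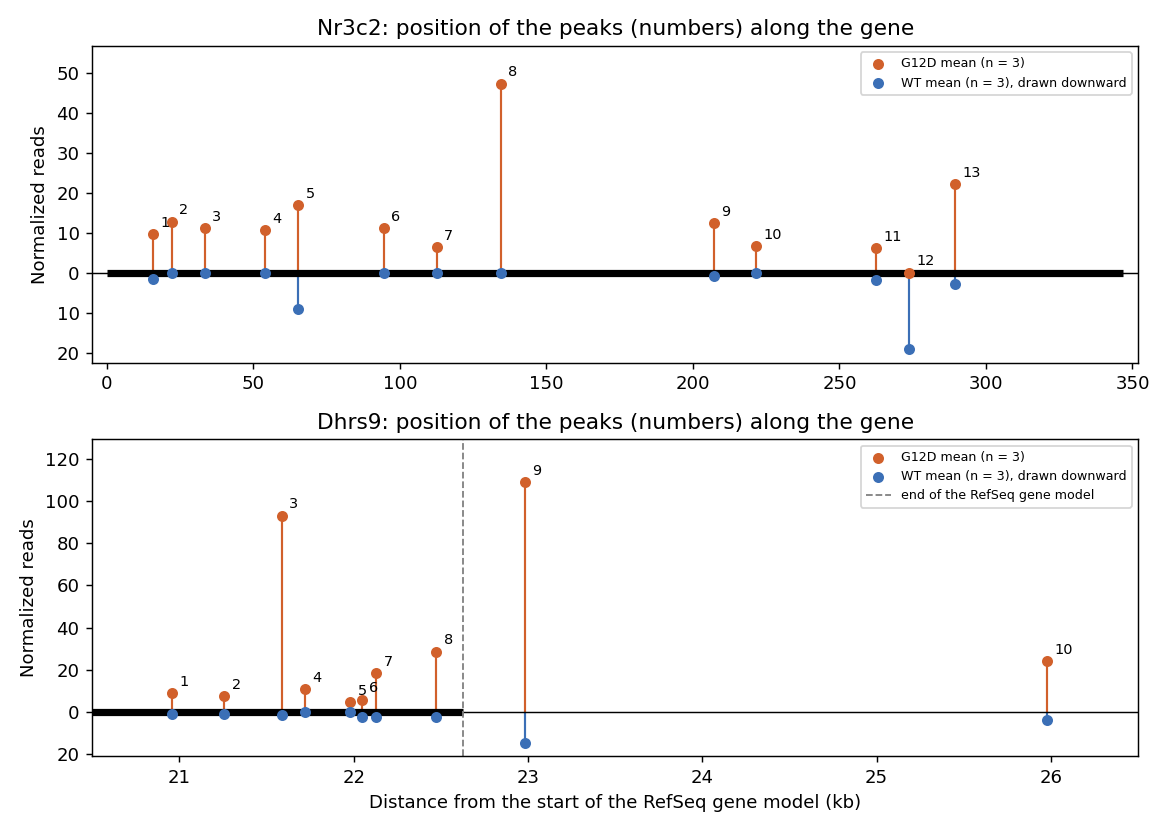
Mean normalized reads of each peak (G12D upward, WT downward, 3 libraries each) against distance from the start of the RefSeq gene model in kb, for Nr3c2 (upper panel) and the 3′ end of Dhrs9 (lower panel). Numbers are peak numbers and the thick line is the gene model. Nr3c2 peaks spread over most of the gene, while 9 Dhrs9 peaks fall within 2073 bases, of which peak 9 is past the end of the model.

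Dhrs9 showed a compact cluster in the 3′ UTR, and all 10 of its peaks were higher in every G12D library than in any WT library. The same arrangement held in 50.1% of all 5554 merged peaks. Summed over its peaks, Dhrs9 had 38.2, 26.1 and 19.3 normalized reads in WT and 416.6, 249.8 and 267.9 in G12D. The means were 27.9 ± 9.57 and 311 ± 91.5 (SD, n = 3 per genotype), a ratio of 11.2 over the 559 bases of these peaks, from 42 WT and 1966 G12D reads. All 10 peaks come from the G12D list, so this too describes the peaks and not the gene. As a share of all reads in merged peaks these peaks went from 0.0148% ± 0.00415 to 0.192% ± 0.0569. G12D library 1 had the highest value.

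Dhrs9 lies on chromosome 2, 69380462 to 69403086 in RefSeq. The authors placed 9 of its peaks in the 3′ UTR and the tenth in a class written utr3*, whose asterisk the file headers do not explain. Peaks 9 and 10 lie 358 and 3354 bases past the end of the RefSeq model. Peaks 1 to 9 also lie within Gm36393, a RefSeq lncRNA gene (69378851 to 69405782), whose strand the gene table does not give. Reads of the 2 genes may not be separable there, and the gene label of these peaks is the authors'.

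A pair of peaks carried most of the Dhrs9 signal. Peak 9 (69403444 to 69403494) had 23.4, 11.6 and 9.02 normalized reads in WT and 156, 75.7 and 96.2 in G12D. It was the best covered of the member peaks in both genotypes together, with 22 WT and 644 G12D reads and a ratio of 6.51 (95% counting interval 4.26 to 10.5). It held 34.6% ± 3.76 of the gene's G12D signal and carries an 8mer for miR-22, with 7mer-A1 matches for miR-182, miR-96 and miR-7. Peak 3 (69402049 to 69402102) had 4.25, 0 and 0 in WT and 140, 70.4 and 68.9 in G12D. Its 565 G12D reads stand against 2 WT reads, both in WT library 1, and it held 29.1% ± 3.98 of the gene's signal in G12D. It carries a 7mer-m8 for miR-194, an intestinal epithelial miRNA, and a 7mer-A1 for let-7. The G12D means of peaks 3 and 9 stood at percentiles 96.0 and 96.6 of all merged peaks. At the depth of WT library 2, peak 3 would give 46.8, 25.6 and 21.1 reads in the G12D libraries, where WT library 2 had 0.

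Next came peaks 8, 10 and 7. Peak 8 (69402937 to 69402992), with 8mers for both miR-194 and miR-182, had 2.12, 2.90 and 1.29 in WT and 26.2, 34.5 and 25.1 in G12D, from 3 and 226 reads. Each WT library thus held a single read there. Peak 10 (69406440 to 69406488) had 0, 2.90 and 7.73 in WT and 28.4, 21.0 and 23.0 in G12D, and holds a 7mer-m8 for miR-224. Peak 7 (69402592 to 69402649), with an 8mer for miR-27, had 4.25, 2.90 and 0 in WT and 17.4, 17.9 and 20.1 in G12D. In all 3 the lowest G12D library was well above the highest WT library.

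The remaining Dhrs9 peaks were shallow. Peak 4 (69402181 to 69402247) had 0 WT reads and 15.3, 9.90 and 7.90 normalized reads in G12D, 5.41-fold the floor (exact lower limit 4.29). Peak 1 (69401422 to 69401512), with no listed seed match, had 2.12, 0 and 0 in WT and 14.2, 5.98 and 6.46 in G12D. Peak 2 (69401721 to 69401773), with an 8mer for the miR-15 and miR-16 family, had 0, 2.90 and 0 in WT and 6.54, 7.22 and 8.62 in G12D. In these 3 peaks the WT side rests on at most 1 read. Peak 5 (69402443 to 69402485), with an 8mer for miR-3081-3p, had 0 WT reads and 25 G12D reads, 1.85-fold the floor (exact lower limit 1.4). Peak 6 (69402509 to 69402545), whose matches are 6mers, had 3 WT and 38 G12D reads. Its ratio was 2.82 (counting interval 0.894 to 14.3). That interval covers counting error only, is too narrow as given above, and is not read as a test.

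On log2(normalized reads + 1), among peaks with a mean of at least 5, 16 of the 23 member peaks entered the limma fit of all peaks, 10 of Nr3c2 and 6 of Dhrs9. The other 7 fell below that mean. By the 0.05 threshold used for all peaks, which the choice of the genes makes a description here, 8 of the fitted Nr3c2 peaks counted as higher, peak 12 as lower and peak 5 as neither. All 6 fitted Dhrs9 peaks counted as higher. Over all 4438 peaks tested, 48.9% were called, 36.2% higher and 12.7% lower. Among intron peaks 65.5% were called higher and 17.8% lower, and among 3′ UTR peaks 37.7% were called higher. The median log2 fold change was 3.30 over the 10 Nr3c2 peaks and 3.11 over the 6 Dhrs9 peaks. It was 1.05 over all peaks tested, 2.70 over intron peaks, 1.23 over 3′ UTR peaks and 1.68 over peaks of the G12D list alone. The 3 largest member values were 5.68 ± 0.70 for Dhrs9 peak 3, 5.58 ± 0.59 for Nr3c2 peak 8 and -4.09 ± 0.63 (SE) for Nr3c2 peak 12. Because the contrast chose the genes, nothing is read from these counts.

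Those shares depend on the scaling and on which peaks are tested. Quantile normalization moved the median of all peaks to 0.11 and split the calls into 834 higher and 821 lower, against 1607 and 563 here. edgeR with TMM gave 1093 and 895 and a median of 0.47, and DESeq2 gave 1130 and 771 and 0.66. Among peaks in both genotype lists, none of them a member, the split was 105 higher and 207 lower with a median of -0.45, and with the minimum mean raised to 20 the split was 429 and 361 with a median of 0.13. With quantile normalization 4 Nr3c2 peaks counted as higher in place of 8, and with all libraries thinned to the shallowest the number was also 4.

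Without a filter on low values, in all 5554 merged peaks, the 3 G12D libraries lay above the 3 WT libraries in 50.1%, and below them in 12.1%. The member peaks had the first arrangement in 11 of 13 cases for Nr3c2 and in 10 of 10 for Dhrs9, and Nr3c2 peak 12 had the second. The authors' deposited table called 10 Nr3c2 peaks higher and 1 lower, and 9 Dhrs9 peaks higher. Over the authors' deposited table, 37.9% of all peaks were called higher and 11.6% lower. Of the 23 member peaks, 22 came from the G12D peak list and none was in both lists. The G12D list holds 5109 peaks and the WT list 1283.

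The 2 genes also differed from most others in the number of their peaks, and Nr3c2 in their place. The class utr3, where most Dhrs9 peaks lie, is the commonest, with 2982 of 5448 annotated peaks. Gene length was not taken into account, and Nr3c2 spans 346930 bases. Nr3c2 had 12 intron peaks, more than any of the other genes among the 369 with an intron peak, where the median was 1. Counting every class, 14 of 2568 genes had more peaks than its 13. Dhrs9 had 9 peaks in the class utr3, and 16 of 1506 genes with such a peak had more. All but 1 of the 23 member peaks came from the G12D list. The numbers of peaks thus share the depth of those libraries and are not independent of the G12D signal that chose the genes. An 8mer was listed in 53.8% of Nr3c2 peaks and in 5 of 10 Dhrs9 peaks, against 30.0% of all annotated peaks, 43.1% of intron peaks and 28.7% of 3′ UTR peaks. With 7mer-m8 matches included, the shares were 76.9% and 70.0%, against 59.7% of all peaks and 71.1% of intron peaks. With 13 and 10 peaks these shares are coarse, and no test was made of them.

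The miRNAs of the families listed at the peaks were tested between genotypes in the miRNA libraries, which are other libraries than those that gave the peaks. They carry the same genotypes and replicate numbers, and the labels do not say whether they stem from other tissue. Among the named miRNAs, miR-27a-3p and miR-205-5p rose most in G12D and miR-24-2-5p, miR-224-5p and miR-449a-5p fell. miR-194-5p, matched at 3 member peaks, rose less. let-7b-5p, the most abundant member of the family with the 8mer in Nr3c2 peak 8, had nearly the same mean in both genotypes. Of 67 miRNAs of these families 62 were tested, and limma with Benjamini-Hochberg adjustment over all 254 tested miRNAs called 8 higher and 3 lower. That is 17.7% of those tested. Over all miRNAs tested 15.7% were called, 9.06% higher and 6.69% lower, so the families were called about as often as miRNAs in general. The median log2 fold change was 0.24, against 0.11 over all tested miRNAs. The balance of all miRNA calls, 23 higher and 17 lower, was 6 and 31 with each library scaled to the same total, 11 and 26 with edgeR and TMM, 13 and 21 with DESeq2 and 16 and 20 with quantile normalization. Without limma's variance trend 2 of the 11 called miRNAs of these families, miR-205-5p and miR-449a-5p, passed, and miR-27a-3p missed the threshold narrowly (limma adjusted p = 0.0585).

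**Figure D3:**
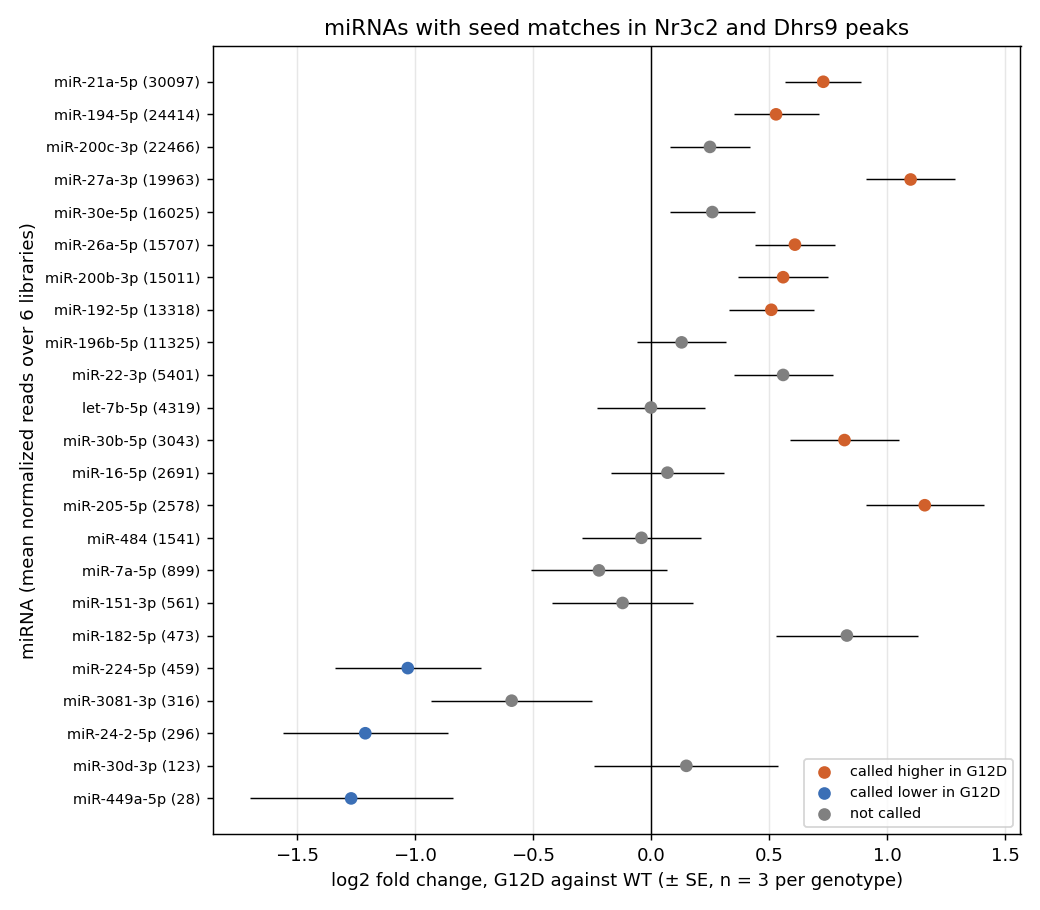
log2 fold change of miRNAs between G12D and WT (± SE, 3 miRNA libraries per genotype) for families with a seed match in Nr3c2 or Dhrs9 peaks, ordered by mean normalized reads over the 6 libraries (in parentheses). Coloured points passed limma's adjusted threshold, orange for higher and blue for lower in G12D. miR-27a-3p and miR-205-5p lie farthest to the right at 1.10 and 1.16, and let-7b-5p lies at 0.

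miR-27a-3p, with its 8mer in Dhrs9 peak 7, had 10704, 18201 and 10046 normalized reads in WT and 28847, 26554 and 25426 in G12D. All G12D libraries were above all WT libraries, and the log2 fold change was 1.10 ± 0.19 (SE; limma adjusted p = 5.57e-05). miR-205-5p, with a 7mer-A1 in Dhrs9 peak 7 and a 6mer in Nr3c2 peak 4, went from 1587 ± 321 to 3569 ± 902 (1.16 ± 0.25, limma adjusted p = 0.00123), and passed under all 18 alternatives. miR-21a-5p, with a 6mer in Dhrs9 peak 6, was the most abundant miRNA in the libraries and rose by 0.73 ± 0.16 (limma adjusted p = 0.00159). Its value with quantile normalization was 0.07, and it then missed the threshold (limma adjusted p = 0.762).

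miR-26a-5p is listed at Nr3c2 peak 9 and at Dhrs9 peaks 9 and 10. It had 13309, 12984 and 11011 normalized reads in WT and 18376, 20591 and 17968 in G12D, and its groups did not overlap (0.61 ± 0.17, limma adjusted p = 0.0143). miR-194-5p had 19625, 24797 and 15668 in WT and 22875, 33180 and 30335 in G12D, and its groups overlapped (0.53 ± 0.18, limma adjusted p = 0.0339). miR-192-5p, with its 8mers in Nr3c2 peaks 6 and 11, rose by 0.51 ± 0.18 (limma adjusted p = 0.0491), and miR-200b-3p by 0.56 ± 0.19 (limma adjusted p = 0.0364). These 4 calls were narrow. With each library scaled to the same total the values were 0.25, 0.17, 0.14 and 0.20 in the order named, and none passed. Without WT replicate 3 the values were 0.53 for miR-26a-5p, 0.37 for miR-194-5p, 0.42 for miR-192-5p and 0.47 for miR-200b-3p, and none passed (limma adjusted p = 0.0712, 0.184, 0.156 and 0.13). Without G12D replicate 2 none passed either, at 0.55, 0.42, 0.50 and 0.52. The calls of miR-200b-3p and miR-192-5p also ended without WT replicate 2 (0.40 and 0.46) and G12D replicate 3 (0.53 and 0.56), that of miR-192-5p without G12D replicate 1 (0.47) and that of miR-194-5p without G12D replicate 3 (0.49). miR-30b-5p, of the family with the 8mer in Nr3c2 peak 5, rose by 0.82 ± 0.23 (limma adjusted p = 0.0108), but not past the threshold without G12D replicate 1 (0.75, limma adjusted p = 0.0715) or with each library scaled to the same total (0.45, limma adjusted p = 0.157).

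Of the miRNAs that fell, miR-224-5p is listed at Dhrs9 peaks 4 and 10. It had 720, 455 and 678 normalized reads in WT and 316, 344 and 240 in G12D, without overlap (-1.03 ± 0.31, limma adjusted p = 0.0199). miR-24-2-5p, with a 7mer-m8 in Nr3c2 peak 7, had 651, 280 and 327 in WT and 223, 136 and 157 in G12D (-1.21 ± 0.35, limma adjusted p = 0.0161). WT library 1 was high for it, and without that library the value was -0.84 (limma adjusted p = 0.132). The call of miR-224-5p was lost without WT replicate 1 (-0.90), WT replicate 3 (-0.95) or G12D replicate 3 (-0.88). miR-449a-5p, of the family with a 6mer in Dhrs9 peak 4, went from 39.3 ± 5.93 to 16.3 ± 5.62 (-1.27 ± 0.43, limma adjusted p = 0.0383), but the call ended without WT replicate 1 (-1.16), WT replicate 3 (-1.37), G12D replicate 2 (-1.01) or G12D replicate 3 (-1.29).

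The miRNAs with an 8mer in Nr3c2 peak 8 and in Dhrs9 peak 9 did not pass. let-7b-5p had 4650, 3268 and 5040 normalized reads in WT and 4071, 5454 and 3430 in G12D, with full overlap (0.00 ± 0.23, limma adjusted p = 0.996). miR-196b-5p stood at 0.13 ± 0.19 and miR-7a-5p at -0.22 ± 0.29. miR-22-3p, with the 8mer in Dhrs9 peak 9, had 5359, 3556 and 4265 in WT and 6218, 6957 and 6052 in G12D. Its groups did not overlap, but the value of 0.56 ± 0.21 missed the threshold (limma adjusted p = 0.0585). miR-182-5p, of Dhrs9 peaks 8 and 9, was similar, from 341 ± 47.3 to 605 ± 78.3 (0.83 ± 0.30, limma adjusted p = 0.0526). miR-200c-3p at 0.25 ± 0.17 and miR-30e-5p at 0.26 ± 0.18 did not pass either. A missed threshold at 3 libraries a genotype does not show equal levels.

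The other genes of the aldosterone pathway had peaks called in both directions. Of 50 listed genes 21 had a peak, and of their 62 tested peaks 19 were called higher and 9 lower, or 30.6% and 14.5%, beside 36.2% and 12.7% of all peaks. Their median log2 fold change was 0.57, against 1.05 over all peaks. With quantile normalization the split was 12 higher and 16 lower, with edgeR and TMM 13 and 17, and with DESeq2 14 and 15. Among the list's peaks in both genotype lists it was 2 and 5, and with the minimum mean raised to 20 it was 3 and 8.

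**Figure D4:**
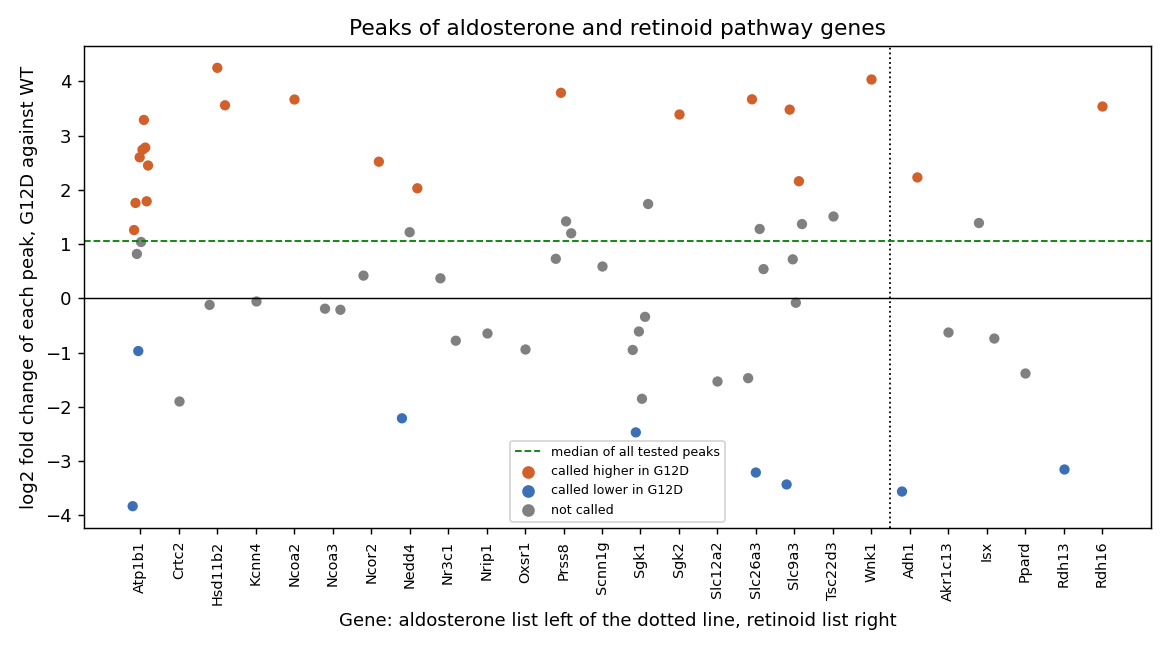
log2 fold change between G12D and WT of tested peaks of aldosterone pathway genes (left of the dotted line; 1 gene is not shown) and retinoid genes (right), 3 pulldown libraries per genotype. Orange and blue points were called higher and lower by limma, grey points were not called, and the dashed line is the median of all tested peaks, 1.05. Peaks of Atp1b1 lie on both sides of 0, and the retinoid list holds 2 higher and 2 lower calls.

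Around the receptor, Hsd11b2 had 3 peaks, all in its 3′ UTR, of which 2 were called higher. The one with the largest change (chromosome 8, 105523905 to 105523957) had 0, 2.90 and 0 normalized reads in WT and 18.5, 34.2 and 38.1 in G12D (log2 fold change 4.25 ± 0.72 SE, limma adjusted p = 0.000819), on 1 and 236 reads. The peak with the most WT signal (105523597 to 105523655) stood at 29.0 ± 16.6 in WT and 23.3 ± 3.28 in G12D and did not pass (-0.12 ± 0.51, limma adjusted p = 0.846). That peak is in both genotype lists. The 2 called higher come from the G12D list alone, so their direction is not independent of the lists. Wnk1, a kinase that regulates salt transport, had an exon peak with an 8mer for miR-194 (chromosome 6, 119934318 to 119934366), at 0 WT reads and 19.6, 13.8 and 13.6 in G12D. Its level was 7.71-fold the floor of 3 WT reads (limma adjusted p = 0.000304). The Wnk1 peak, too, comes from the G12D list alone. Nr3c1, the glucocorticoid receptor gene, had 0 of 2 tested peaks called, Scnn1g, a subunit of the epithelial sodium channel, 0 of 1, and Sgk1 1 of 6, lower.

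Atp1b1, the beta subunit of the sodium pump, had 8 peaks in its 3′ UTR, of which 7 were tested, 4 called higher and 2 lower. The one with the highest mean (chromosome 1, 164437963 to 164438016), had 2670, 1780 and 1760 normalized reads in WT and 97.1, 159 and 184 in G12D. It fell by 3.83 ± 0.38 (SE) on the log2 scale (limma adjusted p = 0.000114). An exon peak less than a kilobase away (164438422 to 164438485), with an 8mer for the miR-200 family, rose from 185 ± 55.9 to 437 ± 104 (1.26 ± 0.36, limma adjusted p = 0.0131). Of all 12 tested Atp1b1 peaks 8 were called higher and 2 lower, so opposite calls occurred along the gene and within its 3′ UTR. In the 3′ UTR, the 4 called higher come from the G12D list alone, and the 2 called lower are in both lists. Prss8, a protease that activates the sodium channel, had 4 peaks in its 3′ UTR, of which 1 was called higher (3.79 ± 0.71, limma adjusted p = 0.00144), on 1 WT and 131 G12D reads. The one with the highest mean stood at 162 ± 24.7 in WT and 268 ± 25.7 in G12D and did not pass (0.73 ± 0.31, limma adjusted p = 0.0727). It is in both lists, while the Prss8 peak called higher comes from the G12D list alone.

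Few retinoid genes had a peak: 6 of 56. Of their 8 peaks, all tested, 2 were called higher and 2 lower, or 25% each, beside 36.2% and 12.7% of all peaks. Their median log2 fold change was -0.68, against 1.05 over all peaks. The G12D list alone gave 5 of these peaks, the WT list alone 3, and 0 are in both lists. Each call went toward the genotype whose list gave the peak, so the directions below are not independent of the lists. Quantile normalization gave 1 and 5, and edgeR with TMM 1 and 3. Adh1, an alcohol dehydrogenase that also oxidises retinol, had 2 peaks in the 3′ UTR class, called in opposite directions. The one with the higher mean (chromosome 3, 138288815 to 138288873) had 65.8, 66.7 and 50.3 normalized reads in WT and 2.18, 4.95 and 6.46 in G12D (-3.56 ± 0.49, limma adjusted p = 0.000295). The other (138282689 to 138282744) rose from 1.57 ± 1.38 to 9.85 ± 3.62 (2.23 ± 0.68, limma adjusted p = 0.0187). The 3′ UTR peak of Rdh13, a retinol dehydrogenase (chromosome 7, 4427500 to 4427553), fell from 58.6 ± 18.4 to 5.45 ± 0.294 (-3.15 ± 0.45, limma adjusted p = 0.000365). The Rdh13 peak and the Adh1 peak that fell carry 7mer-m8 matches for the miR-15 and miR-16 family. Like the second Adh1 peak, an intron peak of Rdh16, another retinol dehydrogenase (chromosome 10, 127842879 to 127842931), was higher in G12D, with 1 WT read and 125 G12D reads (3.55 ± 0.66, limma adjusted p = 0.00138). It holds a 7mer-m8 for miR-194, as Dhrs9 peak 3 does. An exon peak of Isx, an intestinal transcription factor induced by retinoic acid, and that of Ppard, a nuclear receptor, did not pass (1.39 ± 1.02 and -1.37 ± 0.63, limma adjusted p = 0.266 and 0.0873).

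Genes with the most similar summed signal were sought among 1702 genes over the 6 pulldown libraries, by the correlation of log2(sum + 1). For Nr3c2 these were Tom1l1 (r = 0.9986), Ccnc (r = 0.9983) and Tgoln1 (r = 0.9978). For Dhrs9 they were Zfp36 (r = 0.9980), Car1 (r = 0.9966) and B3gnt3 (r = 0.9956). All 6 points share the 2 genotypes and their depths, and 349 and 302 genes had r above 0.9, so such values are common here. Car1, a carbonic anhydrase of colonocytes, went from 153, 130 and 116 normalized reads in WT to 691, 590 and 574 in G12D, with G12D library 1 highest as for Dhrs9.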

How the data were processed

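The member genes and gene lists were chosen with earlier results of these data known. The deposited signal in merged peaks and in mature miRNAs is reads divided by a factor per library. With the smallest value above 0 taken as 1 read, 100% of values were whole reads within 0.01. STAR 2.5.2b, DESeq2, mm10 and GRCm38 are named in the submitters' processing notes, and which peak caller and counting rules were applied is not stated in the labels or headers. The authors deposited log2 fold changes and p-values in their differential tables, per the file headers, and a score per peak in the peak lists, which no result uses. Peak classes, gene labels and seed matches are the authors'. Coordinates are GRCm38, counted from 1.

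limma 3.58.1 (R 4.3.3) with a variance trend was run on log2(normalized reads + 1) for G12D against WT, on peaks with a mean of at least 5 (4438 of 5554) and miRNAs with a mean of at least 10 (254 of 459), adjusting p by Benjamini-Hochberg over each whole table of tested features, at a threshold of 0.05. It was tested on simulated data. edgeR 4.0.16 and DESeq2 1.42.0 were run on the recovered reads as alternatives, beside other pseudocounts, filters and scalings, no variance trend, the replicate block, thinning, each library left out in turn and, added after the data were seen, both libraries numbered 2 left out and edgeR with the deposited factors. Fold changes on this scale understate changes of low peaks. Ratios of pooled reads carry exact 95% intervals, and where a group had 0 reads its floor was 3 reads over the group. Whether each numbered library stems from a separate mouse is not in the labels, and p-values then measure only the spread between these libraries, which may be technical. Deviations of same-numbered libraries did not correlate in peaks (r = 0.0415, -0.0357 and -0.0076), so numbers were not used as pairs.

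Named were every member peak, the most abundant and each called miRNA of the families matched there, and, per gene list, the genes of the 4 peaks with the highest mean and of up to 3 called peaks with the largest change. For families with only weaker matches than a 7mer-m8, only called miRNAs are printed, which was decided after values were seen, for length. Likeness was measured among genes with a mean summed signal of at least 10. Peaks of 1 gene that this rule names are not reported here, though they count in the list totals.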

Additional observations from a re-analysis of the deposited data

How the results depend on the processing

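A peak mean of at least 20, with fewer peaks tested, left 790 calls (429 higher, 361 lower), 11 on the aldosterone list (3 and 8), 2 on the retinoid list (both lower), 1 for Nr3c2 and 2 for Dhrs9. Peaks in both genotype lists gave 312 calls (105 higher, 207 lower) and 7 on the aldosterone list (2 and 5). No member peak is in both. For Nr3c2 there were 5 calls with quantile normalization and 5 after thinning to the shallowest library, in place of 9. The causes were not tested. Leaving out 1 library gave 1410 (without G12D replicate 2) to 2275 peak calls, 20 (without WT replicate 3) to 56 miRNA calls, 7 to 10 for Nr3c2 and 4 to 6 for Dhrs9. With the replicate block there were 2220 peak calls and 25 miRNA calls in place of 40, and without the variance trend 18. The block left 9 Nr3c2 and 6 Dhrs9 calls, and ended those of miR-192-5p, miR-200b-3p, miR-224-5p, miR-24-2-5p, miR-30b-5p and miR-449a-5p (limma adjusted p = 0.0529 to 0.0904). It is a fit on shared numbers only: the miRNA deviations of same-numbered libraries had r = -3e-04, -0.4217 and -0.318.

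None of the 11 called miRNAs named here changed sign under the 18 alternatives run. Among uncalled ones, scaling to the same total turned miR-16-5p to -0.29, miR-196b-5p to -0.24, miR-200c-3p to -0.11, miR-30e-5p to -0.11 and miR-30d-3p to -0.21. Quantile normalization gave -0.07 for miR-16-5p, -0.14 for miR-196b-5p, -0.29 for miR-200c-3p and -0.20 for miR-30e-5p. edgeR with TMM gave -0.15 for miR-16-5p, -0.07 for miR-196b-5p and -0.14 for miR-30d-3p, and DESeq2 -0.01 for miR-16-5p. Without both libraries numbered 2, an alternative added after the data were seen, miR-16-5p was at -0.16, miR-196b-5p at -0.00, miR-151-3p at 0.16 and miR-484 at 0.11. With 1 library left out, let-7b-5p ranged from -0.19 to 0.15, miR-16-5p from -0.10 to 0.26, miR-151-3p from -0.31 to 0.08, miR-30d-3p from -0.18 to 0.51 and miR-484 from -0.19 to 0.04. Depth limits the WT side: 20 of the 23 member peaks rest on at most 7 WT reads.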
